A study of Bos taurus with 13 samples.

Results

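ELF5, EPCAM, KRT7 and PLET1 are genes by which epithelial cells are recognised, and they were followed here on a bovine mammary cDNA microarray. They were chosen by name, through the gene symbol that the platform annotation gives to a spot, from genes whose earlier values on these arrays were known. Those values included PLET1 in lactating gland and EPCAM in ileum, so the tissue and lactating values of all 4 genes are given as a description, without a test. The 4 genes, of 706 genes named on the platform, occupied 18 of 3888 spots, in 6 of 1296 clones of 3 consecutive spots. ELF5 was represented by 3 clones of different accessions (spots 2869 to 2871, 3217 to 3219 and 3559 to 3561, called clones 1, 2 and 3). EPCAM had 1 clone (spots 1519 to 1521), as did KRT7 (spots 3532 to 3534) and PLET1 (spots 2983 to 2985).

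The series holds 13 hybridisations with 2 channels of total RNA each. 8 arrays set 1 bovine tissue each against the BovMac cell line as a common reference. The tissues were prepubertal mammary gland (a Holstein heifer of 136 kg), ileum, thymus, spleen, lymph tissue, liver, adrenal tissue and adipose tissue. 2 arrays set lactating mammary gland against prepubertal gland, from a heifer of 136 kg on array 1 and of 227 kg on array 2. 1 array set postpubertal gland (a Holstein heifer of 310 kg) against prepubertal gland (136 kg). 2 arrays set the reference line against itself, and the label of array 1 spells it BovMav. The labels give no age or treatment, no breed for the lactating gland or the other tissues, and do not say whether the 2 lactating arrays shared lactating RNA. Each tissue was on 1 array, so the SD beside a tissue value is over the 3 spots of a clone, which are technical repeats.

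ELF5 encodes an ETS-family transcription factor. In mice it acts downstream of prolactin to form the milk-secreting alveoli, and it also maintains trophoblast. EPCAM encodes an adhesion molecule of simple epithelia and is abundant on intestinal epithelium. KRT7 encodes a keratin of the intermediate filaments of glandular and ductal epithelium. PLET1 encodes a surface protein first known from placenta, which in mice also marks epithelial progenitor cells.

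Each value is a deposited log ratio of the 2 channels, centred on its array's median. The base of the logarithm is not given in the sources used here, so a value of 1 is called 1 log unit and is not converted to a fold. Which channel is on top is not stated either. On the lactating arrays the positive side is likely that of lactating RNA, since of 19 clones of milk secretion genes 18 were positive on array 1 and 17 on array 2. On the tissue arrays the side of the tissue is unsettled, and with the sign turned the highest and lowest tissues trade places. Channel 1 held the lactating gland, whereas the tissues were in channel 2, as was postpubertal gland. If all arrays kept 1 order of channels, positive ratios would be the side of the reference line on the tissue arrays, and that of prepubertal gland on the postpubertal array. Whether they did was not tested. Pearson correlations between tissue arrays across clones ran from -0.23 to 0.68. Repeat spots correlated across clones with a Spearman rho averaging 0.53 to 0.85 on the 10 tissue and lactating arrays. It was 0.06 on the postpubertal array, 0.57 on reference against reference array 1 and 0.12 on array 2. In whole tissue, fewer cells of a type and less RNA per cell cannot be told apart.

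**Figure D1:**
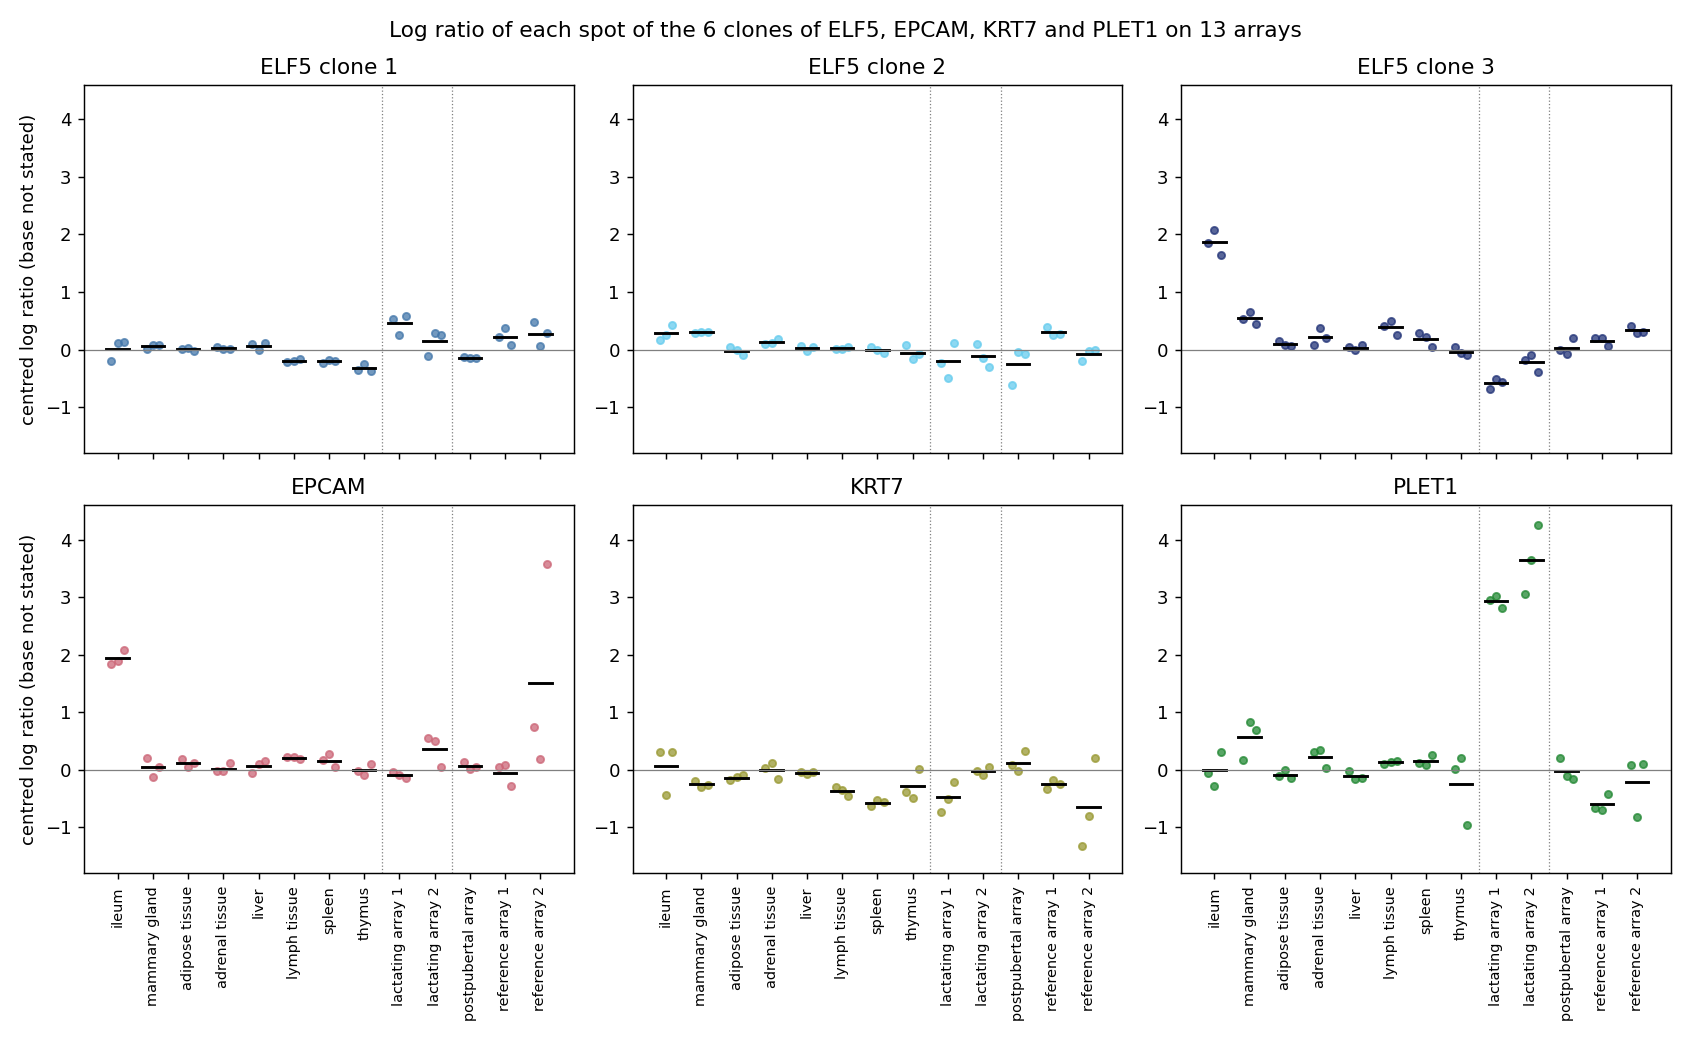
Centred log ratio (y axis, base not stated) of each spot (points) and the mean of the 3 spots (bars) for the 6 clones on 13 arrays (x axis). Every spot of PLET1 lies at or above 2.82 on both lactating arrays, and every spot of EPCAM and ELF5 clone 3 at or above 1.65 on the ileum array, while the other ELF5 clones and KRT7 have no clone mean beyond 0.57 on either side of 0 on those 10 arrays.

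PLET1 was far on the positive side of both arrays of lactating against prepubertal gland and, as centred, near 0 in most tissues. It lay at 2.93 ± 0.11 (SD, 3 spots) on array 1 and at 3.65 ± 0.60 on array 2, a mean of 3.29 ± 0.51 (SD, n = 2 arrays). Its lowest spot was 2.82 on array 1 and 3.06 on array 2. It took rank 4 of 1248 clones from the positive end on array 1 and rank 2 of 1234 on array 2. PLET1 was the 1 of 6 member clones that lay 1 unit or more on the positive side of both arrays, beside 3.41% of all 1230 clones. The reference line against itself gave -0.59 ± 0.15 on array 1 and -0.20 ± 0.52 on array 2 for the same clone, which is the opposite side. Postpubertal against prepubertal gland gave -0.02 ± 0.20, within the spread between spots.

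Among the 8 tissues, PLET1 was most positive in prepubertal mammary gland, at 0.57 ± 0.34. Adrenal tissue followed at 0.23 ± 0.17, spleen at 0.16 ± 0.09, lymph tissue at 0.13 ± 0.02 and ileum at -0.01 ± 0.30. Adipose tissue at -0.08 ± 0.08, liver at -0.10 ± 0.08 and thymus at -0.25 ± 0.62 closed the order. The spots of the gland ran from 0.18 to 0.83 and overlapped those of adrenal tissue. Every pair of neighbours in this order had overlapping spots, so the order itself is loose. The thymus mean rested on 1 spot at -0.96, while the 2 other spots were above 0. With the mean of both reference against reference arrays subtracted, PLET1 was positive in all 8 tissues, from 0.15 in thymus to 0.96 in mammary gland. By the rule for likeness, the smallest mean absolute difference over the 8 tissue and 2 lactating arrays, the clone most like PLET1 was 1 of CSN1S1, the gene of alpha-S1 casein. It differed from PLET1 by 0.32 on average, against a median of 0.86 over 823 clones. That casein clone lay at 2.44 on lactating array 1 and 3.13 on array 2, but at -0.14 on the mammary array, where PLET1 was at 0.57. RSL1D1, of a nucleolar protein, and SPTLC1, of the first enzyme of sphingolipid synthesis, came next at 0.35 each.

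**Figure D2:**
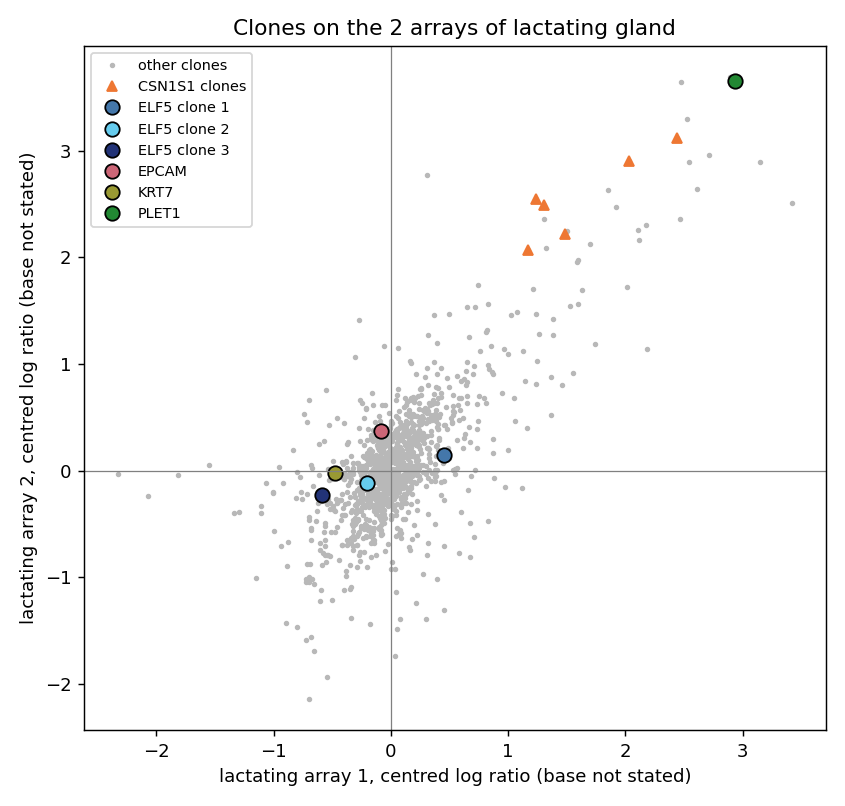
Centred log ratio of each clone on lactating array 1 (x axis) against array 2 (y axis), base not stated, with the 6 member clones and the 6 clones of CSN1S1 marked. PLET1 sits at the positive end of both axes, above every casein clone, while the other 5 member clones lie between -0.59 and 0.45.

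The 3 ELF5 clones did not behave as 1 gene. Clone 3 lay at 1.86 ± 0.21 (SD, 3 spots) on the ileum array, while clone 2 lay at 0.29 ± 0.13 and clone 1 at 0.02 ± 0.19 there. The lowest spot of clone 3, at 1.65, was above the highest spot of the 2 other clones, at 0.43. Clone 3 took rank 10 of 1239 clones from the positive end on that array. ELF5 clone 3 and EPCAM were the 2 of 6 member clones at 1 unit or more on the positive side in ileum, beside 3.31% of 1239 clones.

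Clone 3 was next most positive in prepubertal mammary gland, at 0.54 ± 0.11, and in lymph tissue, at 0.38 ± 0.13. It then ran through adrenal tissue (0.22 ± 0.15), spleen (0.19 ± 0.13), adipose tissue (0.09 ± 0.05) and liver (0.03 ± 0.04) to thymus (-0.04 ± 0.07). Ileum stood 1.32 above mammary gland without overlap of spots, while the spots of all later neighbours in the order overlapped. Of all clones with a value in the 8 tissues, this margin of ileum was rank 13 of 1216.

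Clone 2 was far less positive than clone 3 in ileum, and its ileum and mammary values did not differ beyond the spread between spots. It lay at 0.30 ± 0.02 in mammary gland, 0.29 ± 0.13 in ileum and 0.13 ± 0.05 in adrenal tissue. The other 5 tissues lay between -0.06 (thymus) and 0.03 (liver). As centred, clone 1 was close to 0 in most tissues and lowest in the 3 lymphoid ones. It lay at -0.20 ± 0.02 in lymph tissue, -0.21 ± 0.02 in spleen and -0.33 ± 0.06 in thymus. The 5 other tissues gave 0.003 to 0.07, with mammary gland at 0.06 ± 0.05. The spots of these lymphoid tissues did not overlap those of adipose tissue, the next in order. As centred, the positive value of mammary gland thus held for clones 2 and 3 and was small for clone 1. With the mean of both reference against reference arrays subtracted, it was 0.19 for clone 2, 0.30 for clone 3 and -0.19 for clone 1. Thymus was also the lowest tissue for clones 2 and 3, although its spots overlapped those of the next tissue in both.

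On the lactating arrays the ELF5 clones lay on both sides of 0. Clone 1 was positive, at 0.45 ± 0.18 on array 1 and 0.15 ± 0.22 on array 2. Clone 2 was at -0.20 ± 0.31 and -0.12 ± 0.20, which its spread between spots did not separate from 0. Clone 3 was negative, at -0.59 ± 0.09 on array 1 and -0.22 ± 0.15 on array 2. On array 1 the spots of clone 3 ended at -0.50, below the lowest spot of the 2 other clones at -0.49. The spots of array 2 overlapped between clones. A mean over the 3 clones gave -0.11 on array 1, -0.06 on array 2 and 0.72 in ileum, a level that no ELF5 clone had in ileum. On the reference against reference arrays clone 1 was at 0.22 and 0.27, clone 2 at 0.31 and -0.07 and clone 3 at 0.15 and 0.34. Clone 1 exceeded these on lactating array 1 and not on array 2, clone 2 stayed within their size on both, and clone 3 lay on the opposite side. The postpubertal array gave -0.14 ± 0.01 for clone 1, -0.25 ± 0.32 for clone 2 and 0.03 ± 0.14 for clone 3.

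The spread between the ELF5 clones was set beside that of other genes printed under 2 or more accessions. On the ileum array the highest ELF5 clone lay 1.85 above the lowest, the widest range of 73 such genes, ahead of RAB3D at 1.57, and the median gene had 0.35. On lactating array 1 the range was 1.04, rank 12 of 72, and in lymph tissue 0.58, rank 6 of 73. In liver it was 0.04, rank 65 of 73, and in adipose tissue 0.11, close to the median of 0.11. The spots of clone 3 did not overlap those of clones 1 and 2 on 5 of the 10 tissue and lactating arrays. These were ileum, mammary gland, adipose tissue, lymph tissue and lactating array 1. The gap was small in adipose tissue (0.0556 against 0.0413) and on lactating array 1 (-0.504 against -0.489). Such overlap was not counted for other genes, so this count has no background beside it. ELF5 was 1 of 6 genes with 3 accessions, the most that any gene had, and more clones give more room for a wide range. Among those 6 its range was the widest in ileum and on lactating array 1. The annotation assigns all 3 clones to 1 gene, and their sequences were not used here.

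**Figure D3:**
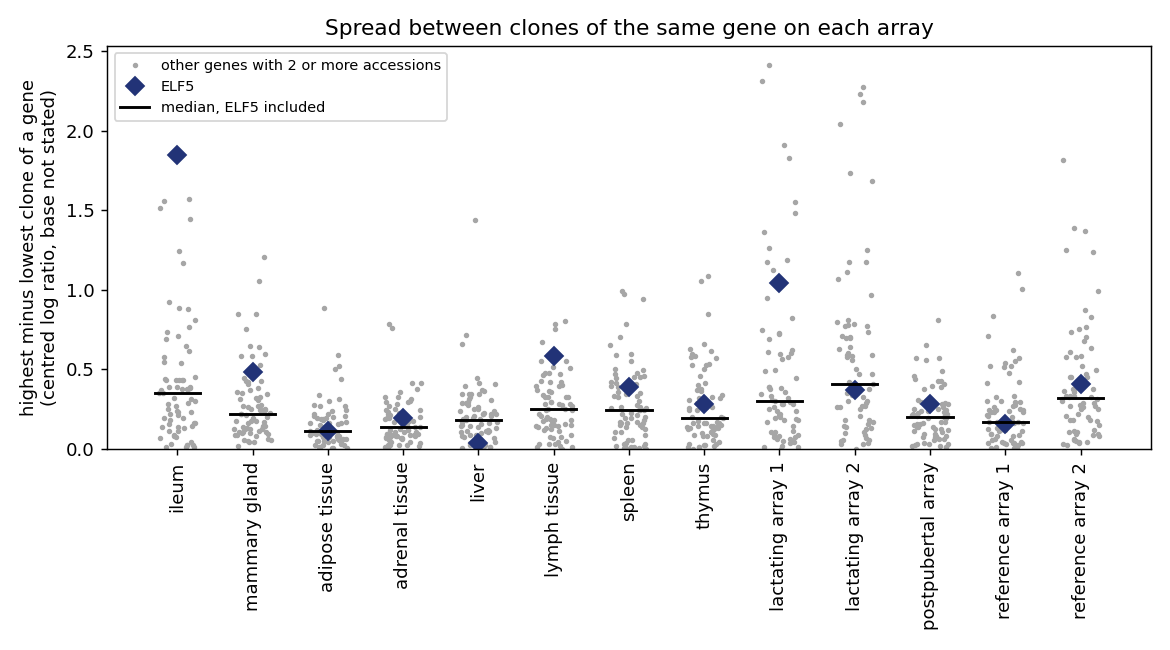
Highest minus lowest clone value (y axis, centred log ratio, base not stated) of each gene printed under 2 or more accessions, on each array (x axis), with ELF5 as diamonds and the median of all such genes as bars. ELF5 has the widest range on the ileum array, at 1.85, and lies at or under the median in adipose tissue, in liver, on lactating array 2 and on reference array 1.

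EPCAM followed ELF5 clone 3 in ileum and, as centred, lay near 0 elsewhere. It stood at 1.94 ± 0.13 on the ileum array, with spots from 1.84 to 2.09, and took rank 9 of 1239 clones. Lymph tissue was next at 0.21 ± 0.02, followed by spleen (0.16 ± 0.11), adipose tissue (0.12 ± 0.07), liver (0.07 ± 0.11), mammary gland (0.05 ± 0.16), adrenal tissue (0.02 ± 0.08) and thymus (0.0012 ± 0.09). Ileum stood 1.73 above lymph tissue, a margin of rank 6 of 1216, and the spots of all later neighbours overlapped. Prepubertal mammary gland, an epithelial organ in a fat pad, was therefore not set apart from liver or adipose tissue by EPCAM.

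The EPCAM value of ileum has a limit in the reference against reference arrays. Array 2 of these gave 1.51 ± 1.81, from spots at 0.19, 0.75 and 3.58, while array 1 gave -0.05 ± 0.21. EPCAM was the 1 of 6 member clones at 1 unit or more on the positive side of array 2, beside 1.09% of 1197 clones. The 3 spots agreed in ileum and did not on that array. With the mean of both reference against reference arrays subtracted, EPCAM was negative in 7 tissues, from -0.52 in lymph tissue to -0.73 in thymus. Ileum stayed positive, at 1.21. On the lactating arrays EPCAM was at -0.09 ± 0.06 on array 1 and 0.37 ± 0.28 on array 2, a mean of 0.14 ± 0.33 (SD, n = 2) whose sign differed between the arrays. The postpubertal array gave 0.07 ± 0.06.

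Over the 10 tissue and lactating arrays EPCAM and ELF5 clone 3 differed by 0.22 on average, less than clone 3 differed from ELF5 clone 2 (0.31) or from clone 1 (0.53). Without ileum the difference between EPCAM and ELF5 clone 3 was 0.23, almost as before. ELF5 clone 2 was then nearer to clone 3 (0.17) than EPCAM was, and clone 1 was still further (0.39). Of the other genes, NAALADL1, of a peptidase known from the small intestine, was most like EPCAM, at a mean difference of 0.18 and an ileum value of 1.62. C1R, of a complement protease, followed at 0.19 and CD74, the class II invariant chain, at 0.20. The median over 823 clones was 0.38.

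KRT7 lay on the negative side in 7 of the 8 tissues, all but ileum, as centred. Spleen was lowest at -0.57 ± 0.05, followed by lymph tissue (-0.37 ± 0.08), thymus (-0.29 ± 0.27), mammary gland (-0.25 ± 0.05), adipose tissue (-0.13 ± 0.04), liver (-0.05 ± 0.02), adrenal tissue (-0.01 ± 0.14) and ileum (0.06 ± 0.43). The spots of spleen did not overlap those of lymph tissue, nor those of mammary gland the spots of adipose tissue, nor those of adipose tissue the spots of liver. The ileum spots of KRT7 ran from -0.44 to 0.32, on both sides of 0. The side of KRT7 depends on the zero point, since the reference line against itself averaged -0.45. With that mean subtracted KRT7 was negative in 1 tissue, spleen (-0.12), and lay at 0.19 in mammary gland, while the order of the tissues is the same by construction. Spleen took rank 29 of 1238 clones from the negative end, so KRT7 stood out there by order more than by size. None of the 6 member clones reached 1 unit on either side of the 7 tissue arrays other than ileum, a count of 0, beside 2.77% of 1263 clones.

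On the lactating arrays KRT7 was at -0.48 ± 0.26 on array 1 and -0.02 ± 0.06 on array 2, a mean of -0.25 ± 0.33 (SD, n = 2). Reference against reference arrays 1 and 2 gave -0.25 ± 0.08 and -0.64 ± 0.78, on the same side, and with their mean subtracted the lactating mean became 0.20. The postpubertal array gave 0.13 ± 0.18. The gene most like KRT7 was TJP3, of a scaffold protein of tight junctions, at a mean difference of 0.10 against a median of 0.31. TJP3 shared the negative values of spleen (-0.51), lymph tissue (-0.36) and lactating array 1 (-0.53). FNDC3B and a clone of the actin gene ACTB followed, at 0.11 each.

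**Figure D4:**
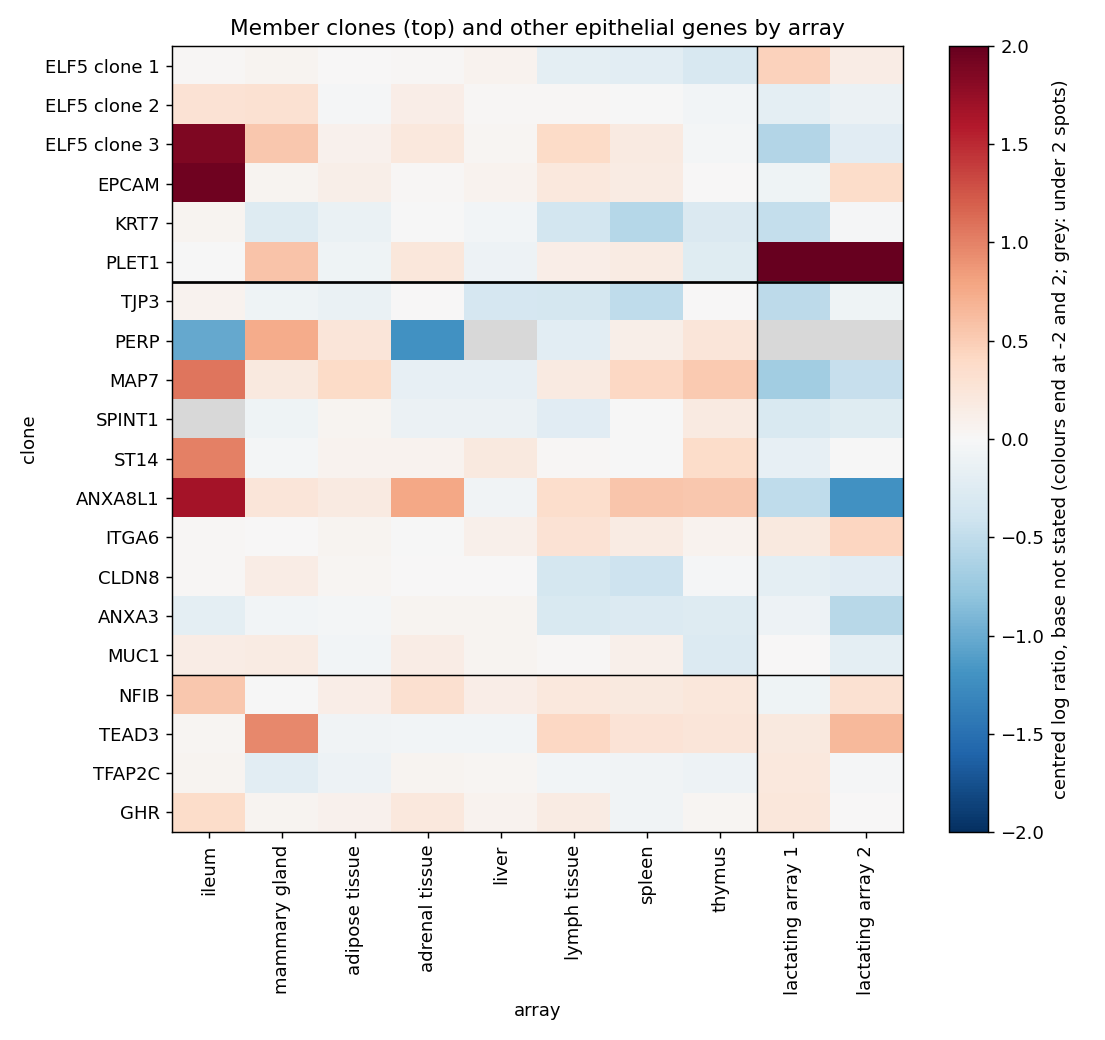
Centred log ratio (colour, base not stated) of the 6 member clones (top) and of 14 clones of other epithelial genes (below) on 8 tissue and 2 lactating arrays. EPCAM, ELF5 clone 3, ANXA8L1, MAP7 and ST14 are at or above 1.00 on the ileum array, and PLET1 is the clone above 2 on the lactating arrays.

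Of 72 genes in a list of epithelial structure, 10 had an annotated clone, 1 clone each. The list was written with earlier results of these data known, so counts over it are a description. No other keratin of the 13 listed had a clone (0 clones), nor did VIL1, CDHR5, CDH17 and KRT20, genes of gut epithelium (0 clones). In ileum 3 of 9 measured clones lay at 1 unit or more on the positive side, beside the 3.31% of all clones. These were ANXA8L1, of an annexin (1.67 ± 0.94), MAP7, of a microtubule-binding protein of epithelia (1.07 ± 0.36), and ST14, of the membrane protease matriptase (1.00 ± 1.16). The spread between spots exceeded the value for ST14. PERP, of a desmosomal protein, lay on the negative side at -1.03 ± 0.44, beside 5.25% of all clones there. The 5 others lay between -0.20 (ANXA3) and 0.15 (MUC1), and the list's median was 0.07, against 0.005 for all clones. In prepubertal mammary gland its median was 0.08, against -0.01 for all clones, and 0 of its 10 clones reached 1 unit.

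**Figure D5:**
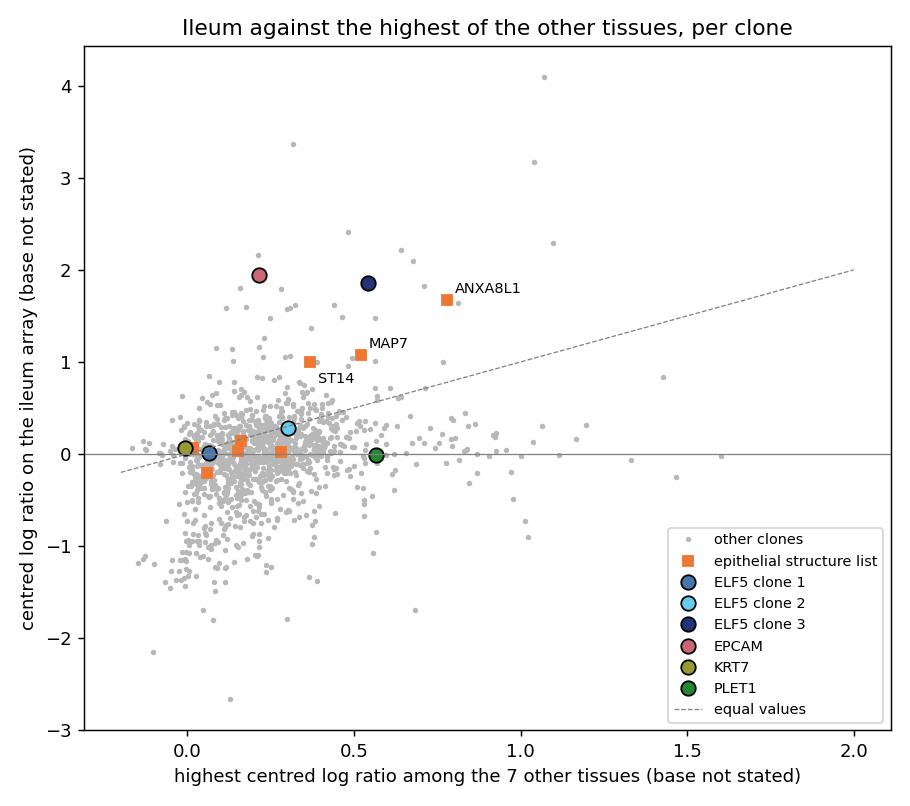
Centred log ratio on the ileum array (y axis) against the highest value among the 7 other tissues (x axis) for clones measured in all 8 tissues, base not stated, with the member clones and the epithelial structure list marked. PERP and SPINT1 lack a value in 1 tissue each and are not drawn, and EPCAM and ELF5 clone 3 lie 1.73 and 1.32 above the line of equal values.

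The list was tested on the lactating arrays with limma over 1230 clones, of which 157 passed an adjusted p of 0.05, or 12.8%, and 4.31% passed on the negative side. 2 of 9 clones of epithelial structure genes passed, both on the negative side. ANXA8L1 was at -0.50 on array 1 and -1.22 on array 2, a mean of -0.86 (adjusted p = 0.0177, limma). MAP7 was at -0.70 and -0.46, a mean of -0.58 (adjusted p = 0.0438, limma). Both had been known from earlier results of these arrays to lie there. The count and p-values of the list are thus a description and add no support. Set against the reference against reference arrays, neither passed, with a difference of -0.58 for ANXA8L1 (adjusted p = 0.372, limma) and of -0.68 for MAP7 (adjusted p = 0.206, limma). Without array 1 the adjusted p in limma was 0.0770 for ANXA8L1 and 0.366 for MAP7, and without array 2 it was 0.596 for ANXA8L1 and 0.323 for MAP7. The lone lactating array was assumed in these to vary like the reference against reference arrays, which supplied the spread. The other 7 ran from -0.33 (ANXA3) to 0.31 (ITGA6), and the list's median was -0.19 on array 1 and -0.22 on array 2, against 0.005 for all clones on each. MUC1, of a mucin of the luminal surface and the milk fat globule, was at -0.10.

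Of 29 transcription regulators of epithelia, 3 were measured and 0 passed in limma, with 1 at an unadjusted p under 0.05. That was TEAD3, of a partner of the Hippo pathway, at 0.20 and 0.65 on the lactating arrays (adjusted p = 0.143, limma). TEAD3 lay at 0.96 ± 0.66 in prepubertal mammary gland. TFAP2C lay at -0.21 ± 0.14 there and NFIB at -0.01 ± 0.07. Of 23 genes of prolactin and lactogenic signalling, which acts upstream of ELF5 in mice, GHR was the 1 measured, and PRLR and STAT5A had no annotated clone. GHR lay at 0.23 and 0.01 on the lactating arrays (adjusted p = 0.716, limma) and did not pass. Of the 19 milk secretion clones, 10 passed in limma, all on the positive side, and 9 did not. The 6 clones of CSN1S1 were among those that passed, with means of 1.62 to 2.78, while CSN3 (adjusted p = 0.329, limma) and CSN1S2 (adjusted p = 0.789, limma) were among those that did not.

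Markers of some other cells also lay away from 0 in ileum, on both sides. Their lists too were written with earlier results of these data known, so calls among them are a description. The 4 measured leukocyte genes of 9 listed ran from 0.10 (LCP1) to 2.41 (CD74) there, with RAC2 at 0.85 and PTPRC at 0.50. Their median was 0.68, against 0.005 for all clones. In lymph tissue their median was -0.18 and in spleen -0.22, with 1 of 4 positive in each. The side of the tissue is unsettled, so a positive value is not read as more leukocytes. Fibroblast and matrix clones ran from -1.81 (POSTN) to 0.23 (TNC), with 3 of 11 genes measured in 4 clones. Endothelial clones ran from -1.01 (CAV1) to 0.39 (EMCN), with 3 of 7 genes measured. Smooth muscle and myoepithelial genes ran from -0.72 (TPM1) to 0.28 (MYH11), with 3 of 9 measured. None of 5 adipocyte genes had a clone (0 clones). On the lactating arrays the leukocyte genes ran from -0.81 to 0.10 on array 1 and from -0.26 to 0.06 on array 2, and 0 of 4 passed in limma, with 1 at an unadjusted p under 0.05. Of 4 endothelial clones 1 passed, CD300LG, at -0.60 and -1.23 (adjusted p = 0.0104, limma), as far on the negative side as ANXA8L1. On that side 4.31% of all clones passed. Set against the reference against reference arrays, 0 clones passed on the negative side, so CD300LG did not either. Of 4 fibroblast and matrix clones 1 passed, COL5A2, at 0.53 and 0.61 (adjusted p = 0.0420, limma), beside 12.8% of all clones on either side. Smooth muscle and myoepithelial genes ran from 0.05 to 0.38 on array 1 and from -0.61 to -0.06 on array 2, and 0 of 3 passed in limma, with 0 at an unadjusted p under 0.05. The part of other cell types in the values of EPCAM, ELF5 clone 3, ANXA8L1 and MAP7 was not tested.

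The ileum array also differed in its numbers. Its median absolute deviation was 0.247, against 0.0953 to 0.175 on the 7 other tissue arrays, so a value of 1 unit is less far out on it. The ranks of EPCAM and ELF5 clone 3 on that array, 9 and 10, cannot change with this scale, by construction. The margins of ileum above the other tissues can, and were not computed on scaled arrays. A run of 144 unannotated spots was at exact 0, taken as no ratio, for 69.4% of its spots on the ileum array and 67.4% on the mammary array, against 98.6% to 100% on the 6 other tissue arrays. Lactating array 1 had 68.8% and array 2 had 100%. How the arrays with and without those ratios were processed is unknown, and each tissue had 1 array, so array and tissue cannot be told apart. PLET1 lay at 2.93 on lactating array 1 and at 3.65 on array 2. Whether the processing of these arrays affected its values was not tested.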

How the data were processed

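The deposited values are scores on a log scale: 1 signed log ratio per spot and array, with base, channel order, background correction and normalization not given in the sources used here. The members and gene lists were chosen with earlier results of these data known. Exact 0 was treated as missing, each array was centred on its median, and the 3 spots of a clone were averaged where at least 2 were measured. Gene identifiers matched 703 of 706 genes to RefSeq's table (assembly ARS-UCD2.0), and 0 symbols changed. Spots that name several genes (30) were not used as genes. Tissue arrays had 1 array each and no test, and a clone was counted at 1 log unit or more. The 2 lactating arrays were tested across all clones against 0, two-sided, with limma 3.58.1 (lmFit, eBayes) in R 4.3.3 and Benjamini-Hochberg adjustment. The code was also run on simulated arrays with independent errors, which cannot show an effect of dye or of shared RNA. The p-values of the lactating arrays rest on 1 residual degree of freedom per clone plus 8.42 pooled over clones. They measure the spread between these arrays, and may be too small. The lactating gland was in channel 1 on both, with no dye swap, so a dye effect is not removed. Named were every member clone, the measured genes of the lists, and the 3 nearest clones per member gene. RAB3D was named after its value was seen. Python 3.11.15, numpy 2.4.6, pandas 2.3.3 and matplotlib 3.10.9 did the rest. The number of arrays limits the precision.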

Additional observations from a re-analysis of the deposited data

How the results depend on the processing

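PLET1 on the lactating arrays, and EPCAM and ELF5 clone 3 in ileum, kept their side and stayed over 1 unit in every alternative run. With arrays scaled to the same median absolute deviation they were at 2.27, 1.32 and 1.26, and with the reference against reference mean subtracted EPCAM was at 1.21 and ELF5 clone 3 at 1.62. PLET1 ran from 2.93 to 3.65 when 1 lactating array was left out. The count of lactating clones called by limma was 157, and 68 with that scaling, 28 with exact 0 kept as a value and 22 with both reference against reference arrays as the contrast. It ran from 14 to 48 with 1 array left out, where the reference against reference arrays supplied the spread. Without centring, which moves the median of all clones to -0.10, 44.0% of calls were positive, against 66.2% after it, 80.9% with scaling, 77.3% with the median of the spots and 100% with exact 0 kept or in contrast. The 2 epithelial list calls became 1 with all 3 spots required. They became 0 with scaling, exact 0 kept or the median of the spots (2 at an unadjusted p under 0.05 each), in contrast, and without either array (1 each). In all, 135 clones passed 1 unit in some tissue, 35 without ileum and 20 without ileum and mammary gland, alternatives added after the data were seen. For 15 other member values, 16 of 85 alternatives moved by more than the spread between spots or arrays, and 7 of the 15 changed sign in some alternative. With the reference against reference mean subtracted these were ELF5 clone 1 in ileum (-0.23) and mammary gland (-0.19), EPCAM in mammary gland (-0.68) and on the lactating arrays (-0.59), KRT7 in mammary gland (0.19) and on the lactating arrays (0.20), and PLET1 in ileum (0.39). The cause was not tested.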

Other observations

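Each of the 3 ELF5 clones was also compared with the other named clones separately, on the same values, a step added after the data were seen. Clone 3 was most like KLF10, of a Krüppel-like factor, at a mean absolute difference of 0.13 over the 8 tissue and 2 lactating arrays. KLF10 lay at 1.83 in ileum, 0.71 in prepubertal mammary gland, and -0.48 and -0.38 on the lactating arrays. CD74 (0.17) and CHTOP (0.20) followed, at 2.41 and 1.58 in ileum. Clone 2 was most like LEPROT (0.05), BECN1, of autophagy (0.07), and GBP1, of an interferon-induced GTPase (0.07). Clone 1 was most like KERA, of a matrix proteoglycan (0.06), PDGFA, of a growth factor (0.09), and COMMD10 (0.09). The mean of the 3 clones was most like LEPROT (0.07), FBLN5 (0.08) and STARD13 (0.09). No gene was among the 3 nearest of more than 1 of the ELF5 clones. With 823 clones to choose from, this adds nothing to the differences between the clones given above. How often other clones share a near neighbour was not counted.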
